A study of Homo sapiens with 30 samples.

Results

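HOXB1, HOXB2, HOXB3 and HOXB4 are the 4 genes at the 3′ end of the HOXB cluster, and they were examined here for open chromatin in ATAC-seq peak lists. The assay cuts accessible DNA with a transposase, so a peak marks a stretch of open chromatin and not transcription. The genes were chosen by name, with earlier results of these data known, out of 20037 protein-coding genes in the RefSeq table of GRCh38.p14. A peak was assigned to a gene where it overlapped the gene body or the 3 kb on either side of it, an interval called the gene's window. When the peaks of all 10 lists were merged where they overlapped, 39 of 493444 merged regions touched the 4 windows.

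The libraries came from wild-type H1 cells, an established line of human pluripotent stem cells, with 3 biological replicates in each of 10 groups. The groups were undifferentiated cells on day 0 (hPSC), DE cells on day 1, aNE and pNE cells on day 2, and 6 groups on day 4. In the protocol used, DE cells had received A8301, trametinib, C59 and LDN193189. aNE cells then received A8301, LDN193189 and C59. pNE cells received A8301, LDN193189, XAV939, FGF2 at 20 ng/mL and TTNPB at 50 nM. TTNPB is a synthetic retinoid that activates retinoic acid receptors, A8301 and LDN193189 block TGF-beta and BMP receptors, and C59 and XAV939 block WNT signalling. On day 4 the aNE-derived groups (aNE_T, aNE_M, aNE_H) and the pNE-derived groups (pNE_T, pNE_M, pNE_H) had been moved to the forebrain (T), midbrain (M) or hindbrain (H) medium. Of these media, only the beginning of the forebrain one is described in the sources used here (XAV939, LDN193189 and FGF2). The seeding density for cultures that ran to day 4 also differed, 75000 per cm2 for the aNE protocol and 150000 for the pNE protocol, so origin and plating density cannot be told apart.

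HOX genes encode homeodomain transcription factors that give cells of the embryo their position along the head-to-tail axis. Genes at the 3′ end of a cluster are switched on earliest and reach farthest towards the head, and HOXB1 to HOXB4 are those active in the hindbrain. Retinoic acid, through its nuclear receptors, is a known activator of these 3′ genes, whereas forebrain tissue lies in front of the HOX domain. HOXB1 specifies the hindbrain segment from which facial motor neurons arise, and its product binds DNA with PBX and MEIS cofactors. HOXB2, HOXB3 and HOXB4 act in the hindbrain as well, HOXB4 in the posterior hindbrain and spinal cord.

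Each group has 1 peak list for its 3 replicates. The values below are therefore single values per group, with no error between replicates, and every comparison is a comparison of lists. The lists held between 167792 peaks (aNE) and 313095 peaks (pNE_H) on chromosomes 1 to 22, X and Y, and they covered 75.5 to 129 Mb. The pNE_H list was the longest by far, and the next was DE with 247642 peaks. The narrowest peak was 122 to 126 bp wide in the aNE-derived lists and 109 to 115 bp in the pNE-derived lists, so a difference in how the lists were made cannot be told apart from origin either. Read depth per library is not held in the lists. Every gene of 4 marker lists had peaks in at least 1 list. So did most genes: 18685 of 20037 had at least 1 covered base in a day 4 list. Having peaks therefore does not check the labels. Peaks summed over 7 anterior neural markers covered 19129 to 22145 bp in the aNE-derived lists and 17128 to 22455 bp in the pNE-derived lists, which overlap. Over 4 pan-neural markers the ranges were 13275 to 14033 bp and 11996 to 15296 bp, which overlap too. These sums do not tell the origins apart.

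The 250 bases before the RefSeq start of HOXB1 (GRCh38.p14, chr17:48531012-48531261, minus strand) are shown, since peaks lay over them in every list of days 0 to 2 and every pNE-derived list and in no aNE-derived list. The 250 bases before the start of LOC105371808, an uncharacterised RefSeq gene on the other side of HOXB1 (chr17:48527508-48527757, minus strand), are shown for contrast, since peaks lay over them in every list but pNE_M. Both are written 5′ to 3′. Capitals mark matches to the motifs searched.

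HOXB1: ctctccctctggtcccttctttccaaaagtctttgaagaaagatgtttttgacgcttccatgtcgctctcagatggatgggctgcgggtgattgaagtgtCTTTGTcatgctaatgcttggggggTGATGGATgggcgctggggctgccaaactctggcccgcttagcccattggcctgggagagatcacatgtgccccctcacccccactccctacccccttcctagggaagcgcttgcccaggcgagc

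LOC105371808: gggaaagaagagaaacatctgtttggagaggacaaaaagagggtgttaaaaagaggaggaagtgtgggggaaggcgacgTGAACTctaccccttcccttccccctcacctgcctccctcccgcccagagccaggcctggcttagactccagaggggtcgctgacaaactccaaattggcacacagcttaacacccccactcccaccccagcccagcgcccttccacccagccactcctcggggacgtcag

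In the HOXB1 stretch the capitals TGATGGAT match TGATNNAT, the core of PBX-HOX sites, at bases 126 to 133 (chr17:48531129-48531136), and CTTTGT, the core of SOX sites, at bases 101 to 106 (chr17:48531156-48531161). The PBX-HOX match lay inside a peak in 7 of 10 lists, the same lists that had a peak at the start. The SOX match lay inside a peak in 6, the DE peak ending before it. Among 35116 RefSeq promoters of the same length, searched on both strands, 6.47% held TGATNNAT and 13.7% held CTTTGT, so both are common words. In LOC105371808 the capitals TGAACT are AGTTCA, a variant of the element bound by 1 retinoic acid receptor, on the other strand. AGTTCA occurred in 8.80% of promoters. Also searched were AGGTCA (12.1% of promoters), TGACAG (13%), bound by MEIS and PREP proteins, and the receptor elements as direct repeats with a spacer of 5 bases. None of these has its letters in the 250 bases of HOXB1. HOXB2, HOXB3 and HOXB4 are not among the promoter entries used here. Their starts were taken as the end of the gene body with the higher coordinate, since HOXB1 is on the minus strand and the genes of a HOX cluster run in 1 direction.

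HOXB1 lies at chr17:48528526-48531011. Its window held 4 peaks in hPSC, 4 in DE, 2 in aNE and 3 in pNE, then 2, 2 and 3 in aNE_T, aNE_M and aNE_H and 4, 6 and 5 in pNE_T, pNE_M and pNE_H. The peaks covered 1928 bp of the window in hPSC, 1563 in DE, 1078 in aNE, 1945 in pNE, 1204 in aNE_T, 1142 in aNE_M, 1655 in aNE_H, 2030 in pNE_T, 2125 in pNE_M and 2508 in pNE_H. All 3 pNE-derived lists lay above all 3 aNE-derived lists, and the highest aNE-derived value was that of the hindbrain medium. The mean over the 3 media was 2221 ± 253 bp for the pNE-derived lists and 1334 ± 280 bp for the aNE-derived lists (SD over the 3 lists, which differ in medium), a ratio of 1.67.

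At the HOXB1 start itself, the interval from 250 bp before to 50 bp after position 48531011 held a peak in 7 lists. The peak ran from 48530405 to 48531204 in hPSC, from 48530917 to 48531153 in DE, from 48530856 to 48531211 in aNE and from 48530713 to 48531438 in pNE. In the pNE-derived lists it ran from 48530723 to 48531518 (pNE_T), 48530869 to 48531485 (pNE_M) and 48530840 to 48531517 (pNE_H). The start was thus inside a peak in both day 2 lists. The aNE-derived lists held no peak there in any medium, and their peak nearest to the start was 2331 bp from it in aNE_T, 2215 bp in aNE_M and 1701 bp in aNE_H. This region, chr17:48530405-48531518, was the only member region open in all lists but the 3 aNE-derived ones. Over the genome 227 of 493444 regions, or 0.0460%, had that pattern. The pattern was taken from the values of this region itself, so the share is a description only.

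2 further regions in front of HOXB1, chr17:48532300-48532589 and chr17:48533108-48533358, were open in the 3 pNE-derived lists and in no other list. Peaks in the first were 226, 158 and 290 bp wide in pNE_T, pNE_M and pNE_H, and in the second 185, 251 and 167 bp. All 6 are narrower than the median peak of their own list in the 4 windows (306, 301 and 379 bp). By contrast chr17:48526932-48528070, which spans the LOC105371808 promoter, was open in all 10 lists with 353 to 1074 bp of peak.

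HOXB2 lies at chr17:48542655-48545109. Its window held 3 to 5 peaks in every list. They covered 1835 bp in hPSC, 936 in DE, 1376 in aNE, 1515 in pNE, 1607 in aNE_T, 1556 in aNE_M, 1583 in aNE_H, 1805 in pNE_T, 1574 in pNE_M and 2244 in pNE_H. The pNE_M value fell between those of the aNE-derived lists, so the origins overlapped. The means were 1874 ± 340 bp for the pNE-derived and 1582 ± 25.5 bp for the aNE-derived lists, a ratio of 1.18. Even that direction turned with the window: without flanks the ratio was 0.433, and with flanks of 1 kb it was 0.831.

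What differed at HOXB2 was where the peaks lay. The region chr17:48543066-48544044 inside the gene body was open in hPSC, DE, aNE, pNE and all 3 aNE-derived lists, with 631 to 957 bp of peak. In pNE_T it held 150 bp of peak, and in pNE_M and pNE_H none. The interval at the HOXB2 start (position 48545109) held a peak in pNE_M, from 48545110 to 48545252, and in pNE_H, from 48544497 to 48545243, and in no other list. The pNE_M peak covered 143 and the pNE_H peak 184 of the 300 bp. In the other 8 lists the nearest peak was 222 to 1321 bp from the start. With 1 kb on each side of the start in place of this interval, 9 lists had a peak, all but DE. These peaks at the start belong to chr17:48544383-48545252, a region open in every list but DE.

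HOXB3 lies at chr17:48548870-48590241, and its gene body holds HOXB4. Its window held 16 peaks in hPSC, 15 in DE, 12 in aNE and 13 in pNE, then 10, 11 and 13 in the aNE-derived and 17, 15 and 21 in the pNE-derived lists, in the order T, M, H. They covered 4668 bp in hPSC, 3457 in DE, 3943 in aNE, 3555 in pNE, 2568 in aNE_T, 2776 in aNE_M, 3813 in aNE_H, 6128 in pNE_T, 6500 in pNE_M and 7925 in pNE_H. The pNE-derived lists were the 3 highest of the 10, and aNE_T and aNE_M the 2 lowest. The means on day 4 were 6851 ± 949 bp for the pNE-derived and 3052 ± 667 bp for the aNE-derived lists, a ratio of 2.24. Outside the windows of HOXB2 and HOXB4 the ratio was 1.94 (4466 ± 919 against 2301 ± 214 bp), so the peaks shared with those windows did not make up the whole of the difference.

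4 regions of HOXB3 followed origin on day 4. chr17:48551996-48553149 was open in hPSC, aNE, pNE and the 3 pNE-derived lists, with 766, 155 and 689 bp of peak in pNE_T, pNE_M and pNE_H, and in no aNE-derived list. chr17:48561808-48562530 held narrow peaks of 123 bp in hPSC and 156 bp in pNE, and wide ones of 723, 483 and 523 bp in the pNE-derived lists. chr17:48573382-48573869, which is also in the HOXB4 window, was open in the 3 pNE-derived lists alone, with 169, 394 and 361 bp. In the other direction chr17:48554476-48554729 was open in the 3 aNE-derived lists, with 183 to 203 bp of peak, and in pNE with 161 bp, but in no pNE-derived list.

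The outermost start of HOXB3, at position 48590241, held a peak in pNE_M, from 48590111 to 48590684, and in pNE_H, from 48590178 to 48590303. Every other list had its nearest peak 2405 to 2936 bp from that start. The pNE_M peak covered all 300 bp of the interval and the pNE_H peak 112 bp. With lists of one size only pNE_M kept a peak there. Any start further inside the gene was not examined. This end of the gene overlaps HOXB-AS3, an antisense RNA gene, and the data have no strand, so the peaks cannot be assigned to 1 of the 2.

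HOXB4 lies at chr17:48575507-48578350, and its whole window is inside that of HOXB3. It held 3 peaks in hPSC, 2 in DE, 1 each in aNE and pNE, 1, 1 and 3 in aNE_T, aNE_M and aNE_H, and 5, 4 and 7 in pNE_T, pNE_M and pNE_H. They covered 713 bp in hPSC, 495 in DE, 648 in aNE, 375 in pNE, 175 in aNE_T, 374 in aNE_M, 776 in aNE_H, 1156 in pNE_T, 2104 in pNE_M and 1935 in pNE_H. The lowest pNE-derived value was above the highest value of the other 7 lists. The means were 1732 ± 506 bp for the pNE-derived and 442 ± 306 bp for the aNE-derived lists, a ratio of 3.92, the largest of the 4 genes. With 1 list left out at a time it ran from 3.01 (without aNE_T) to 6.31 (without aNE_H). The ratio of peak numbers, 3.2 with all lists, ran from 2.67 to 5.33. With flanks of 0 or 1 kb the ratio of covered bases was 2.68 and 2.30, and the origins overlapped. At 1 kb it was no longer the largest, since that of HOXB3 was also 2.30.

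The HOXB4 start did not set the origins apart. The region chr17:48577430-48578683, the widest of those open in all 10 lists, spans the start and held 175 to 751 bp of peak. The 300 bp interval at the start (position 48578350) held a peak in 9 lists. In the remaining one, pNE_M, the peak of that region ended 218 bp from the start. The pNE-derived lists held further peaks beside the start, for example 316 bp in pNE_T and 139 bp in pNE_H at chr17:48572813-48573128, and 772 bp in pNE_M alone at chr17:48580245-48581016. The last region is 297 bp from the gene of the microRNA MIR10A (chr17:48579838-48579947) and inside the non-coding gene HOXBLINC. These 2 regions were picked after their values were seen.

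**Figure D1:**
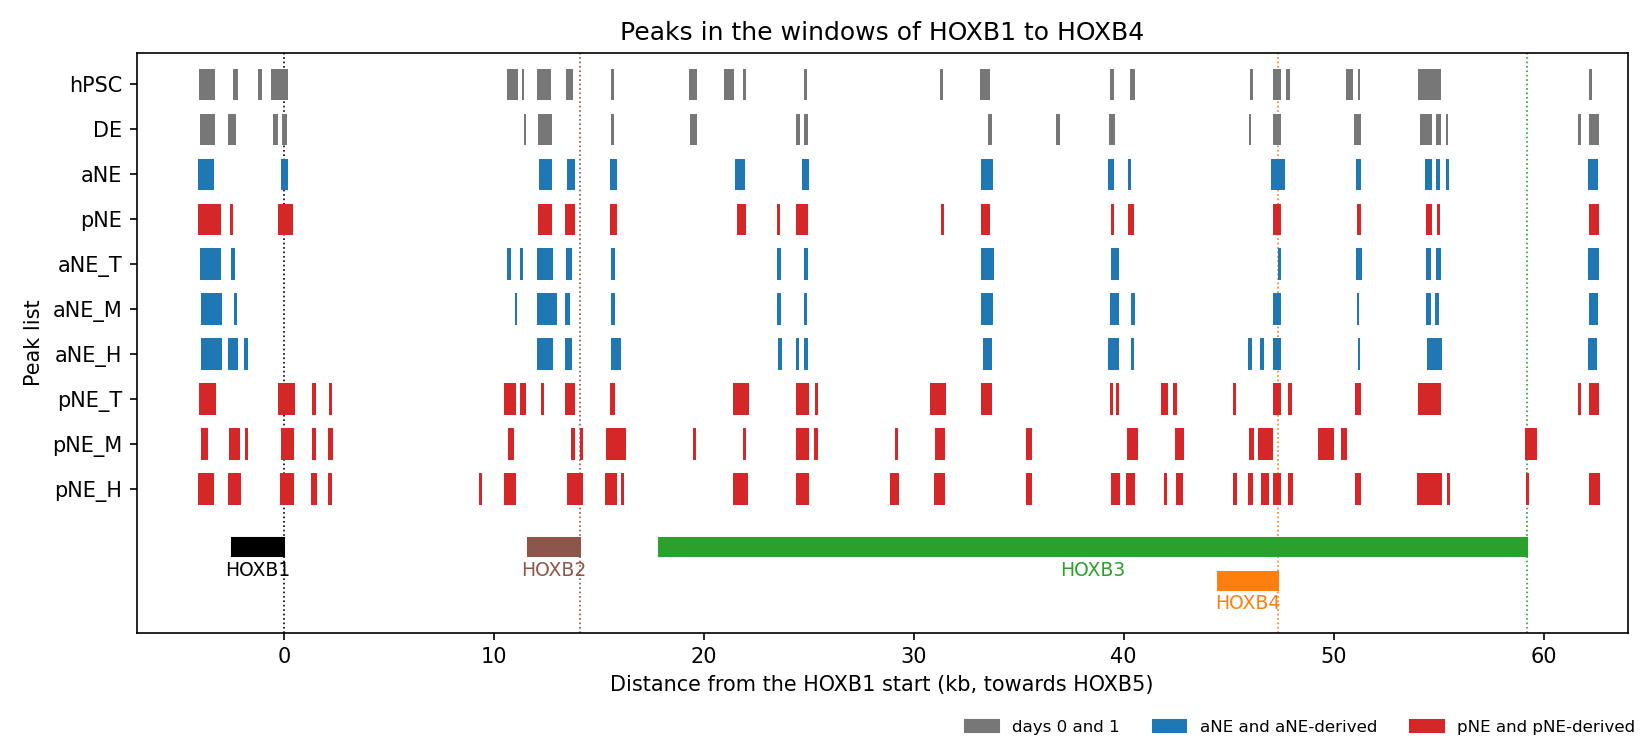
Peaks that overlap the windows of HOXB1 to HOXB4, 1 row per peak list, against the distance from the HOXB1 start in kb on a linear axis. Filled boxes are peaks at their deposited positions, the lower bars are gene bodies and the dotted lines the starts. Blue rows are aNE and aNE-derived lists and red rows pNE and pNE-derived lists. At 0 kb the 3 aNE-derived rows are empty, and at the outermost HOXB3 start boxes appear in pNE_M and pNE_H only.

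**Figure D2:**
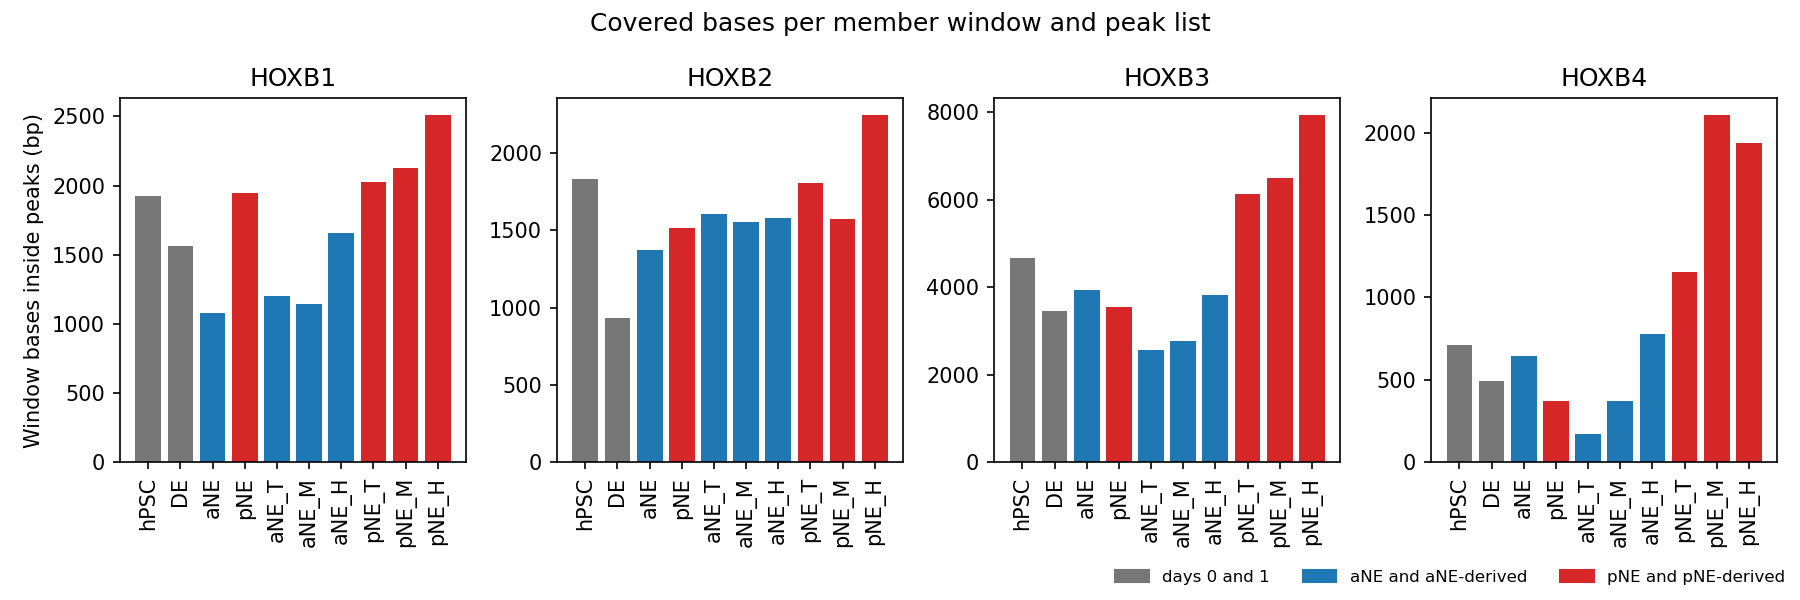
Bases of each window that lie inside peaks (bp, linear axes from 0, a separate scale for each gene), 1 bar per list with no error bar, since each group has 1 list. For HOXB1, HOXB3 and HOXB4 the 3 right-hand bars (pNE-derived) stand above the 3 to their left (aNE-derived). For HOXB2 they do not.

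Day 4 lists of the 2 origins were compared by an exact two-sided permutation test of the mean over 3 lists against 3, for which 0.1 is the smallest p that can be reached. No result can therefore pass 0.05. The test took the 3 media of an origin as exchangeable and did not pair the lists by medium. For covered bases the exact permutation p was 0.1 for HOXB1, HOXB3 and HOXB4 (each 0.133 after Benjamini-Hochberg adjustment over the 4 genes) and 0.3 for HOXB2 (adjusted 0.3). For the number of peaks it was 0.1 for the same 3 genes (adjusted 0.133) and 0.7 for HOXB2 (adjusted 0.7). The mean number of peaks was 5 against 2.33 at HOXB1, 4.67 against 4 at HOXB2, 17.7 against 11.3 at HOXB3 and 5.33 against 1.67 at HOXB4, pNE-derived against aNE-derived.

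Of the 4 genes, 3 (HOXB1, HOXB3 and HOXB4) had all pNE-derived lists above all aNE-derived lists, against 7.76% of the 17897 protein-coding genes with at least 500 covered bp in 1 of these lists. The reverse held for none of the 4 and for 3.17% of genes. The median ratio over all genes was 1.02. A ratio as high as that of HOXB4 or higher was found at 0.738% of genes, as high as that of HOXB3 at 1.56%, of HOXB1 at 3.69% and of HOXB2 at 20.9%. HOXB4 and HOXB3 share a window and are not independent. The 4 genes were chosen with earlier results of these data known, so these shares are a description only. The count of 3 fell to 2, without HOXB1, when covered bases were divided by the total of each list, and to 1, HOXB3, with flanks of 0 or 1 kb. It rose to 4 with flanks of 10 kb. The shares over all genes moved as well: divided by the total of each list, 4.97% of genes lay above and 19.9% below, and with lists of one size 6.81% and 7.11%, with 3 of the 4 genes above.

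**Figure D3:**
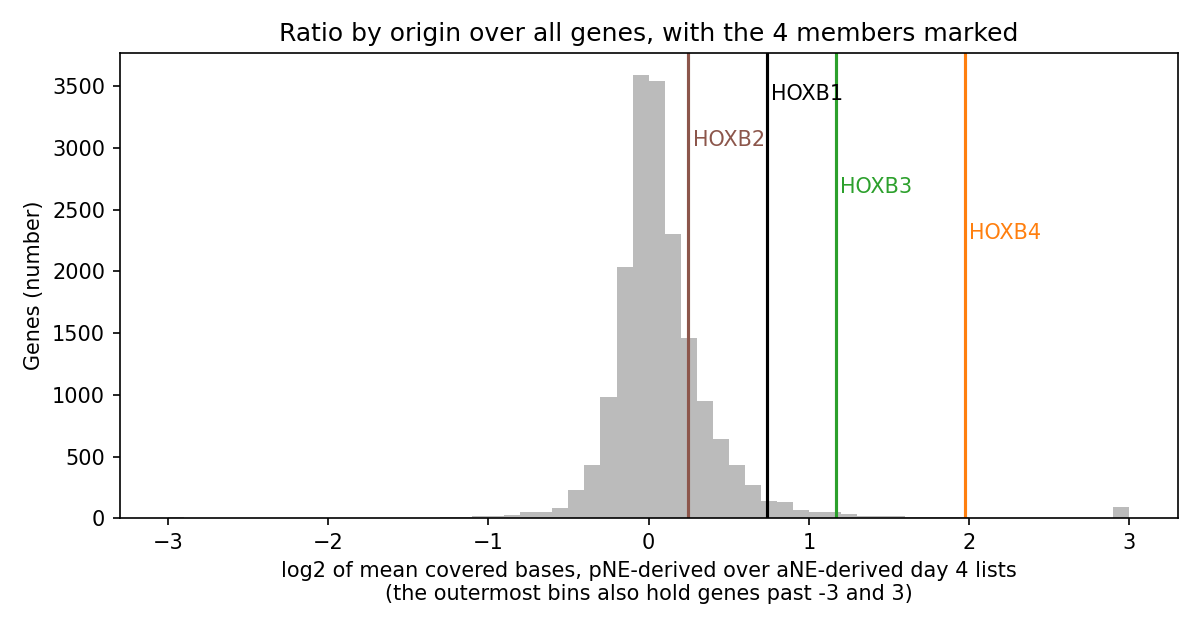
Number of protein-coding genes (y axis) by the log2 ratio of mean covered bases, pNE-derived over aNE-derived day 4 lists (x axis), for 17897 genes. Vertical lines mark the 4 genes, and the outermost bins also hold genes beyond the axis. HOXB2 stands in the body of the distribution, and HOXB1, HOXB3 and HOXB4 in its right-hand flank.

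Within 1 medium the same order was seen. In the forebrain medium, pNE_T over aNE_T, the ratio of covered bases was 1.69 at HOXB1, 1.12 at HOXB2, 2.39 at HOXB3 and 6.61 at HOXB4. In the midbrain medium it was 1.86, 1.01, 2.34 and 5.63, and in the hindbrain medium 1.52, 1.42, 2.08 and 2.49, in the same order of genes. In each medium HOXB4 had the highest and HOXB2 the lowest ratio. HOXB4 had its lowest ratio in the hindbrain medium, where the aNE-derived list was itself highest (776 bp). These ratios are not scaled to list length, and pNE_H covered 129 Mb against 84.0 Mb for aNE_H. Per Mb covered in the list, HOXB1 had 19.4 bp in pNE_H against 19.7 in aNE_H, and HOXB2 17.4 against 18.8. HOXB3 (61.3 against 45.4) and HOXB4 (15.0 against 9.24) stayed higher in pNE_H. Scaled in this way, all 4 genes stayed higher in the pNE-derived list in the forebrain and midbrain media.

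On day 2, before the change of medium, of the member regions 14 were open in both aNE and pNE, 3 in pNE alone and 1 in aNE alone. Shared regions were 0.778 of all regions open in either list, against 0.591 over the genome. Covered bases in pNE were 1.80 times those in aNE at HOXB1, 1.10 times at HOXB2, 0.902 times at HOXB3 and 0.579 times at HOXB4. With 1 list each, a difference was called only at 1.5-fold: HOXB1 was higher in pNE, as were 5.9% of 17355 genes, and HOXB4 was lower in pNE, as were 1.83% of genes. The HOXB1 ratio on day 2 was above its ratio of means on day 4 (1.67). The HOXB1 call was lost with flanks of 10 kb (1.43), and that of HOXB4 without flanks (0.724) and with windows of 500 bp at peak midpoints (1). At HOXB1 both lists had a peak at the start, of 726 bp in pNE and 356 bp in aNE. At HOXB4 both had a single peak, of 375 bp in pNE and 648 bp in aNE.

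The regions open in pNE and not in aNE were chr17:48528346-48528986 in the HOXB1 gene body (145 bp of peak in pNE), chr17:48554476-48554729 (161 bp) and chr17:48561808-48562530 (156 bp) in HOXB3. The region open in aNE and not in pNE was chr17:48586360-48586539 in HOXB3 (152 bp). On day 4 the first was open in all 3 aNE-derived lists and in pNE_M and pNE_H, the second in the 3 aNE-derived lists alone, and the third in the 3 pNE-derived lists alone.

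Day 4 was then set against the day 2 list of the same origin. The 3 comparisons of an origin share that day 2 list and are not independent of each other. HOXB1 covered 1.12, 1.06 and 1.54 times its aNE bases in aNE_T, aNE_M and aNE_H, and 1.04, 1.09 and 1.29 times its pNE bases in pNE_T, pNE_M and pNE_H. In the aNE-derived lists this total hid several changes. The peak at the start was gone, and peaks in chr17:48528346-48528986 (205, 138 and 477 bp) had appeared. The peak at LOC105371808 was wider, 999, 1004 and 994 bp against 722 bp in aNE. aNE_H also held a peak of 184 bp in chr17:48529127-48529319.

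With flanks of 3 kb HOXB2 stayed between 1.04 and 1.48 times the day 2 value in all 6 comparisons. HOXB3 covered 0.651, 0.704 and 0.967 times its day 2 bases in the aNE-derived and 1.72, 1.83 and 2.23 times in the pNE-derived lists. HOXB4 covered 0.270, 0.577 and 1.20 times its day 2 bases in the aNE-derived and 3.08, 5.61 and 5.16 times in the pNE-derived lists. HOXB3 and HOXB4 thus moved apart by origin between day 2 and day 4, whereas the aNE list had been the higher of the day 2 pair at both genes. With windows of 500 bp that day 2 order was lost, with pNE to aNE ratios of 1.10 at HOXB3 and 1 at HOXB4. HOXB4 also rose in aNE_H, and without flanks it rose there more (2) than in pNE_T (1.42). Whether the 2 origins differ in the change from day 2 to day 4 was not tested, since each value comes from 1 list.

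Counted at 1.5-fold, HOXB3 and HOXB4 were higher than on day 2 in every pNE-derived list. Over all genes with enough coverage the shares that were higher or lower were 5.18% and 4.93% for pNE_T, 3.15% and 7.12% for pNE_M, and 23.6% and 0.644% for pNE_H. The pNE_H list was also the longest, and its median ratio over all genes was 1.23, while the medians of pNE_T and pNE_M were 1.00 and 0.942. In the aNE-derived lists HOXB3 and HOXB4 were lower than on day 2 in aNE_T (6.19% of genes higher, 1.08% lower), and HOXB4 was lower in aNE_M (9.4% higher, 1.83% lower). HOXB1 was higher in aNE_H (7.48% higher, 4.34% lower). HOXB2 passed 1.5-fold in none of the 6, but did so under other settings. Without flanks it was lower in pNE_T (0.557), pNE_M (0.155) and pNE_H (0.521), and with flanks of 1 kb in pNE_M (0.532). With windows of 500 bp it was higher in pNE_T, pNE_H and aNE_T (1.67 each). Several of the calls at the other 3 genes were lost under other settings. HOXB3 fell short with windows of 500 bp in pNE_T (1.30), pNE_M (1.24) and aNE_T (0.826), with flanks of 10 kb in pNE_M (1.38) and aNE_T (0.830), and scaled to the list in pNE_H (1.49). HOXB4 fell short without flanks in pNE_T (1.42) and aNE_M (0.692), with flanks of 10 kb in aNE_M (0.747), and with windows of 500 bp in aNE_T and aNE_M (1 in both). HOXB1 in aNE_H fell short when scaled to the list (1.38) and with the widest 50% of peaks (1.36), and with flanks of 10 kb its direction turned (0.917).

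Counted as regions, the pNE-derived lists gained more than they lost. From pNE, pNE_T gained 10 and lost 3 member regions, pNE_M gained 13 and lost 6, and pNE_H gained 13 and lost 3. From aNE, aNE_T gained 4 and lost 4, aNE_M gained 3 and lost 3, and aNE_H gained 4 and lost 3. Over the genome every one of these lists gained more regions than it lost: 67809 and 57039 in pNE_T, 63482 and 54256 in pNE_M, 134872 and 27276 in pNE_H, 53955 and 24060 in aNE_T, 76998 and 29006 in aNE_M, and 73173 and 39104 in aNE_H. The share of day 2 regions kept was 82.4%, 64.7% and 82.4% for pNE_T, pNE_M and pNE_H, against 70.5%, 71.9% and 85.9% of regions over the genome. For aNE_T, aNE_M and aNE_H it was 73.3%, 80% and 80%, against 84.7%, 81.6% and 75.2%.

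The aNE-derived lists resembled each other at these genes. Shared member regions were 0.875 of those open in either list for aNE_T and aNE_M, 0.824 for aNE_M and aNE_H and 0.722 for aNE_T and aNE_H. For the pNE-derived lists they were 0.412 for pNE_T and pNE_M, and 0.594 for each of the other pairs. Between origins in the same medium they were 0.5 (T), 0.3 (M) and 0.387 (H). Over the genome these shares lay closer together, between 0.483 and 0.670 for the same 9 pairs.

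Sorting the 39 regions by pattern, 6 were open in all 3 pNE-derived lists and in no aNE-derived list (15.4%, against 2.33% of all regions), and 1 had the reverse pattern (2.56%, against 0.633%). With every list cut to the same number of its widest peaks, these counts were 2 and 2. Open in at least 1 pNE-derived list and in no aNE-derived list were 19 regions (48.7%, against 29.9%), with 1 in reverse (2.56%, against 10.7%). 5 regions were open in all 10 lists (12.8%, against 16.5%), the 3 widest being those at the HOXB4 start, at LOC105371808 and chr17:48546305-48547305 between HOXB2 and HOXB3. The last held 948 bp of peak in pNE_M and 755 bp in pNE_H, against 130 to 489 bp in the other lists.

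**Figure D4:**
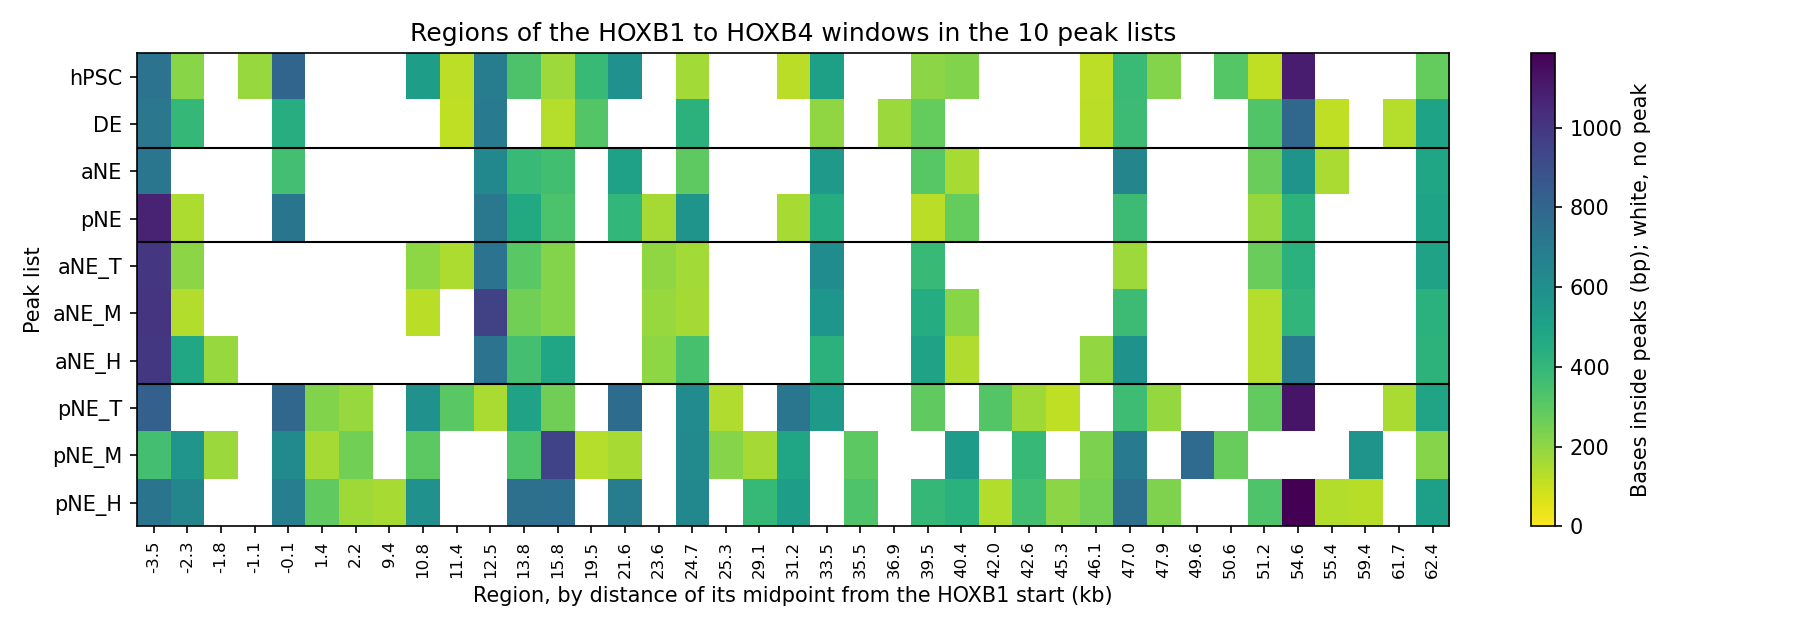
The 39 merged regions (columns, from the HOXB1 side to the HOXB5 side) by peak list (rows). A filled cell is a list with at least 1 peak in the region. The 3 aNE-derived rows look alike, and the pNE-derived rows fill columns that are empty elsewhere and leave some columns empty that other lists fill.

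The pNE_M and pNE_H lists also lacked peaks that the rest had, a pattern noticed after the values were seen. Besides the HOXB2 region described, chr17:48564153-48564814 in HOXB3 was open in all lists but these 2, with 198 to 609 bp of peak. 2 of 39 regions had this pattern (5.13%), against 492 regions over the genome (0.0997%). 3 more HOXB3 regions were open in every list but pNE_M: chr17:48570254-48570814, chr17:48581987-48582341 and chr17:48584987-48586173 (7.69%, against 0.696%). The last was among the widest, with 1187 bp of peak in pNE_H and 1120 bp in pNE_T. Conversely 3 regions were open in pNE_M and pNE_H alone (7.69%, against 2.08%): the outermost HOXB3 start, chr17:48559900-48560290 and chr17:48566338-48566662. The pNE_M and pNE_H lists thus both lacked peaks at 2 regions and held peaks at 3 that no other list had. pNE_M alone lacked 3 more, at which pNE_H had a peak.

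Other genes of the same system were described in the same way. Among HOX genes numbered 1 to 4 in the other clusters, the origins overlapped at HOXC4 (ratio 1.22), HOXD1 (1.07) and HOXD4 (4.22). HOXA3 (1.52) and HOXD3 (1.76) had all pNE-derived lists above all aNE-derived lists. Of the rest of the HOXB cluster 2 of 6 genes did, HOXB5 (1.56) and HOXB7 (1.46), with a median of 1.51. Of 17 genes that make, degrade, bind or sense retinoic acid it was 2, the receptor RARB (1.71), itself a known retinoic acid target, and RDH10 (1.23), an enzyme of retinoic acid synthesis, with a median of 1.05. The share of all genes with that pattern was 7.76%, and 2 of 17 is near it. Neither the rest of the HOXB cluster nor the retinoic acid list had a gene in the reverse direction, beside 3.17% of all genes.

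On day 2 none of the 17 retinoic acid genes passed 1.5-fold between aNE and pNE. Over all genes 5.9% were higher and 1.83% lower in pNE, and none of 17 is near these shares. Their median ratio was 1.04, the same as that of all genes to this precision. In the rest of the HOXB cluster 1 of 6 genes, HOXB13, was higher in pNE, and the median was 1.18.

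The genes outside the HOXB neighbourhood whose covered bases followed those of the 4 joined windows most closely over the 10 lists, each as a share of its list's total, were RNF149 (Pearson r = 0.950), MRO (0.932), DZIP1 (0.932), RHOBTB1 (0.926) and FAM78B (0.916). They were picked as the highest of 17149 genes ranked, over 10 points that share lists, and are given as a description.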

How the data were processed

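Omni-ATAC libraries of 50000 cells each were made from 30 samples in 10 groups. The deposited files are 10 peak lists, 1 per group, each with chromosome, start and end and no score, so the only measured values are peak positions. The submitters' processing notes name Bowtie2, MACS2 and the build hg38. The calling threshold and the way replicates were combined are not given in the sources used here, and either would move peak number and width.

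Starts were converted to 1-based positions. For each gene, the peaks that overlap the gene body with 3 kb on each side by at least 1 bp were counted and their bases inside it summed (covered bases). Peaks of all lists were merged where they overlapped by at least 1 bp. Genes with at least 500 covered bases in 1 of the lists compared entered the shares over all genes. Single lists were called different at 1.5-fold. Similar genes were ranked among those with at least 1000 covered bases. Gene positions and promoters came from RefSeq, GRCh38.p14. Python 3.11.15, numpy 2.4.6, scipy 1.17.1 and matplotlib 3.10.9 were used, and the counting code was checked on 4000 simulated windows with 0 errors.

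The members and lists were chosen with earlier results of these data known. Named regions were those open in all 3 day 4 lists of one origin and none of the other, those open in 1 day 2 list of the pair and in at least 3 lists, those at the starts, and the 3 widest open in all 10 lists. Others are said to have been picked after their values were seen. Alternatives changed the flanks, the overlap, list length, peak width, scale, coverage and the lists compared. Size-matched and widest-peak region counts and the 1 kb intervals at the starts were added after seeing the data. Some genes and gene lists are not reported here.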

Additional observations from a re-analysis of the deposited data

Results flagged for a closer look

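HOXB3 covered bases moved in opposite directions between day 2 and day 4 in the 2 origins. Relative to the day 2 list aNE_T held 0.651 times the bases, aNE_M 0.704 times and aNE_H 0.967 times, all below 1, whereas the pNE-derived lists of the T, M and H media held 1.72, 1.83 and 2.23 times, all above 1. The difference between origins was not tested, since each ratio comes from a single list per group and the 3 ratios of an origin share a day 2 list. The aNE_H value was close to 1, and with windows of 500 bp at peak midpoints it was 1.09.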

How the results depend on the processing

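No paired analysis was possible because each group has 1 peak list for its 3 replicates and no value per replicate, so replicates cannot be matched. The day 4 lists can be matched by medium, and the ratio of covered bases was above 1 in all 3 media at each of the 4 genes. Divided by the total of each list, the hindbrain pair fell below 1 at HOXB1 and HOXB2. These held 19.4 and 17.4 bp per Mb covered in pNE_H, against 19.7 and 18.8 in aNE_H. Leaving out each day 4 list in turn kept the direction of all 60 values. Without flanks the HOXB2 ratios were 0.433 (origin, covered bases), 0.667 (origin, peak number), 0.557 (pNE_T to pNE), 0.155 (pNE_M to pNE) and 0.521 (pNE_H to pNE), and that of HOXB4 on day 2 was 0.724. With flanks of 1 kb HOXB2 gave 0.831 by origin and 0.532 for pNE_M to pNE. The genes with all pNE-derived lists above numbered 1 and 1 under these flanks. With flanks of 10 kb HOXB1 gave 1.43 on day 2 and 0.917 for aNE_H to aNE. Scaled to the list, HOXB2 peak number by origin was 0.988 and the joined windows gave 1.19 for pNE_H to pNE. With windows of 500 bp HOXB4 on day 2 was 1. With the widest 50% of peaks aNE_T to aNE was 0.636 for the joined windows and aNE_H to aNE 0.582 for HOXB4, and HOXB4 had no aNE_T peak left. Regions open in all lists of one day 4 origin and none of the other numbered 2 in each direction with lists of one size by width, and 4 for pNE and 2 for aNE where peaks had to cover 50% of a region. The HOXB1 start kept the same 7 lists with lists of one size. The HOXB2 start and the outermost HOXB3 start kept 1 list each, pNE_H and pNE_M.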
